A study of Mus musculus with 9 samples.

Results

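Toll-like receptors are the pattern-recognition receptors through which microglia and macrophages detect microbial and damage-associated molecules, and the transcripts described here are 7 of these receptors (Tlr1, Tlr2, Tlr4, Tlr6, Tlr7, Tlr9 and Tlr13), the co-receptor Cd14, the adaptor Myd88 and the chaperone Unc93b1. They were taken by name from the gene column of both expression tables, and 10 of 10 were found among 24318 genes. The libraries were polyA-selected RNA-seq from cultured mouse cells in 3 groups of 3: Vehicle, CON-BDEV (brain-derived extracellular vesicles called control, with libraries named EV Saline) and SE-BDEV (vesicles whose name refers to status epilepticus, meaning a prolonged seizure, with libraries named EV Pilo). Brain-derived extracellular vesicles are membrane-bound particles that brain cells release. Vehicle cells received none, and the labels give no genotype, dose or exposure time. The series' design text names BV2, an immortalised mouse microglial line, whereas the label of each library names N2a, a mouse neuroblastoma line. A single line stands in for a tissue here, so the values say nothing of other brain cells.

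Tlr2 pairs with Tlr1 or Tlr6 at the cell surface to detect bacterial lipopeptides, and Tlr4 detects lipopolysaccharide, which Cd14 hands on to it. Tlr7 (single-stranded RNA), Tlr9 (unmethylated CpG DNA) and Tlr13 (bacterial ribosomal RNA) signal from endosomes, to which Unc93b1 escorts them. All 7 receptors signal through Myd88, which recruits IRAK kinases and leads to NF-kB activation, and Tlr4 also signals through TRIF.

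RefSeq start-site windows (GRCm38.p6), reaching from 250 bases before to 50 after an annotated start, were matched for 6 of the 10 genes, namely Tlr1, Tlr2, Tlr6, Tlr9, Tlr13 and Myd88. Those of Tlr2 and of its surface partners Tlr1 and Tlr6 are shown because these 3 receptors work as pairs and, of the 3 transcripts, the one that passed the test below was Tlr2. Capitals mark motif matches on either strand.
Tlr2, chr3:83841559-83841858, minus strand: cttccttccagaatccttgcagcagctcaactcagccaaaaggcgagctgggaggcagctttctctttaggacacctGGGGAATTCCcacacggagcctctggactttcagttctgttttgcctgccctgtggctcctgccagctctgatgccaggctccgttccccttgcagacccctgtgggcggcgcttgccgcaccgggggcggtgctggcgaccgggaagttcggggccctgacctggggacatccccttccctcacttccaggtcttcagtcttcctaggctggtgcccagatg
Tlr1, chr5:64933509-64933808, minus strand: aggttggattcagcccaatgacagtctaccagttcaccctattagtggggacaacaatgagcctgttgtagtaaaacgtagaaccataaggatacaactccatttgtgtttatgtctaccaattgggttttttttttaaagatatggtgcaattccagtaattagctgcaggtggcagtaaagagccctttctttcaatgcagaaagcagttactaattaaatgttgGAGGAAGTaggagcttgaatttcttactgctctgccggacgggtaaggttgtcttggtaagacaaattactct
Tlr6 first window, chr5:64959117-64959416, minus strand: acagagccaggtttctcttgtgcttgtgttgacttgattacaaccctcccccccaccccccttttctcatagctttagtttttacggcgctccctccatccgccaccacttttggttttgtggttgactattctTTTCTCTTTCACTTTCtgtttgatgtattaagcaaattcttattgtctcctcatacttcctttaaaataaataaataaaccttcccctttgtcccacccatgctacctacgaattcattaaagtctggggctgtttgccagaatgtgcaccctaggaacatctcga
Tlr6 second window, chr5:64959999-64960298, minus strand: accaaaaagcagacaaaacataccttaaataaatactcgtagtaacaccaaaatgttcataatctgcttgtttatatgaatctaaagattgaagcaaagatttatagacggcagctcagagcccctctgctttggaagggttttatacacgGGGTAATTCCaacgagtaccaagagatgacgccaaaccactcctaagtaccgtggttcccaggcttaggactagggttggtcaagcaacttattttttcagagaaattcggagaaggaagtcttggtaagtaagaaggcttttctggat

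The motifs searched, on both strands, were NF-kB (GGGA, any 2 bases, then TTCC), the interferon-stimulated response element (GAAA, any 2 bases, then GAAA), the antioxidant response element bound by NRF2 (TGACNNNGC) and a PU.1 site (GAGGAAGT). A looser NF-kB form (GGG, any 3 bases, then TTCC), which also contains every match of the first, was added after the sequences were seen. The Tlr2 window held GGGGAATTCC, a match to the looser form only, starting at position -173 from the start site. The second Tlr6 window held GGGTAATTCC, likewise only the looser form. The Tlr1 window shown held a PU.1 match and the first Tlr6 window 2 overlapping matches to the interferon element. A second Tlr1 window and the Tlr13 window held no match. The Tlr9 window held an antioxidant element and a PU.1 match, and the Myd88 window an interferon element. Of 32851 RefSeq windows of this length, 1.47% held the NF-kB motif, 5.56% its looser form, 3.44% the interferon element, 12.4% the antioxidant element and 3.2% the PU.1 site. A match is a string of letters and was not tested as a binding site.

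Expression was measured in FPKM (fragments scaled to transcript length and to library depth), which allows levels of different genes to be compared per length. Estimated depth was 28794000 to 33328000 fragments per library, and 10486 to 10561 genes reached 1 FPKM. Of 18 microglia and macrophage markers 16 had a mean of at least 1 FPKM, with Tyrobp at 712 and Cd68 at 740 FPKM, while the other 2, Cx3cr1 and P2ry12, were at 0.122 and 0.0142 FPKM. Of 12 neuroblastoma and neuronal markers 2 did, Uchl1 at 90.2 and Elavl4 at 3.92 FPKM, and Th, Dbh, Mycn and Stmn2 were listed at 0 in all 9 libraries. These marker levels go against the N2a label. Whether the 3 replicates of a group were grown as separate cultures is not given in the labels, and every p-value below reflects library-to-library spread that could be technical. Both comparisons with Vehicle use the same 3 Vehicle libraries.

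In Vehicle the 10 transcripts spanned 4.30 FPKM (Tlr6) to 80.1 FPKM (Unc93b1). The order below Unc93b1 was Myd88 (42.1 FPKM), Cd14 (37.2), Tlr4 (27.6), Tlr13 (20.3), Tlr7 (20.2), Tlr1 (14.5), Tlr2 (13.7), Tlr9 (6.41) and Tlr6 (4.30). Library ranges overlapped between Tlr13 and Tlr7 and between Tlr1 and Tlr2, and between no other neighbours in this order. With either vesicle preparation Tlr7 stood above Tlr13 and Tlr2 above Tlr1, with no overlap between Tlr7 and Tlr13 or between Tlr2 and Tlr1 within a vesicle group, while Tlr4 and Tlr7 overlapped, as did Tlr13 and Tlr2.

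**Figure D1:**
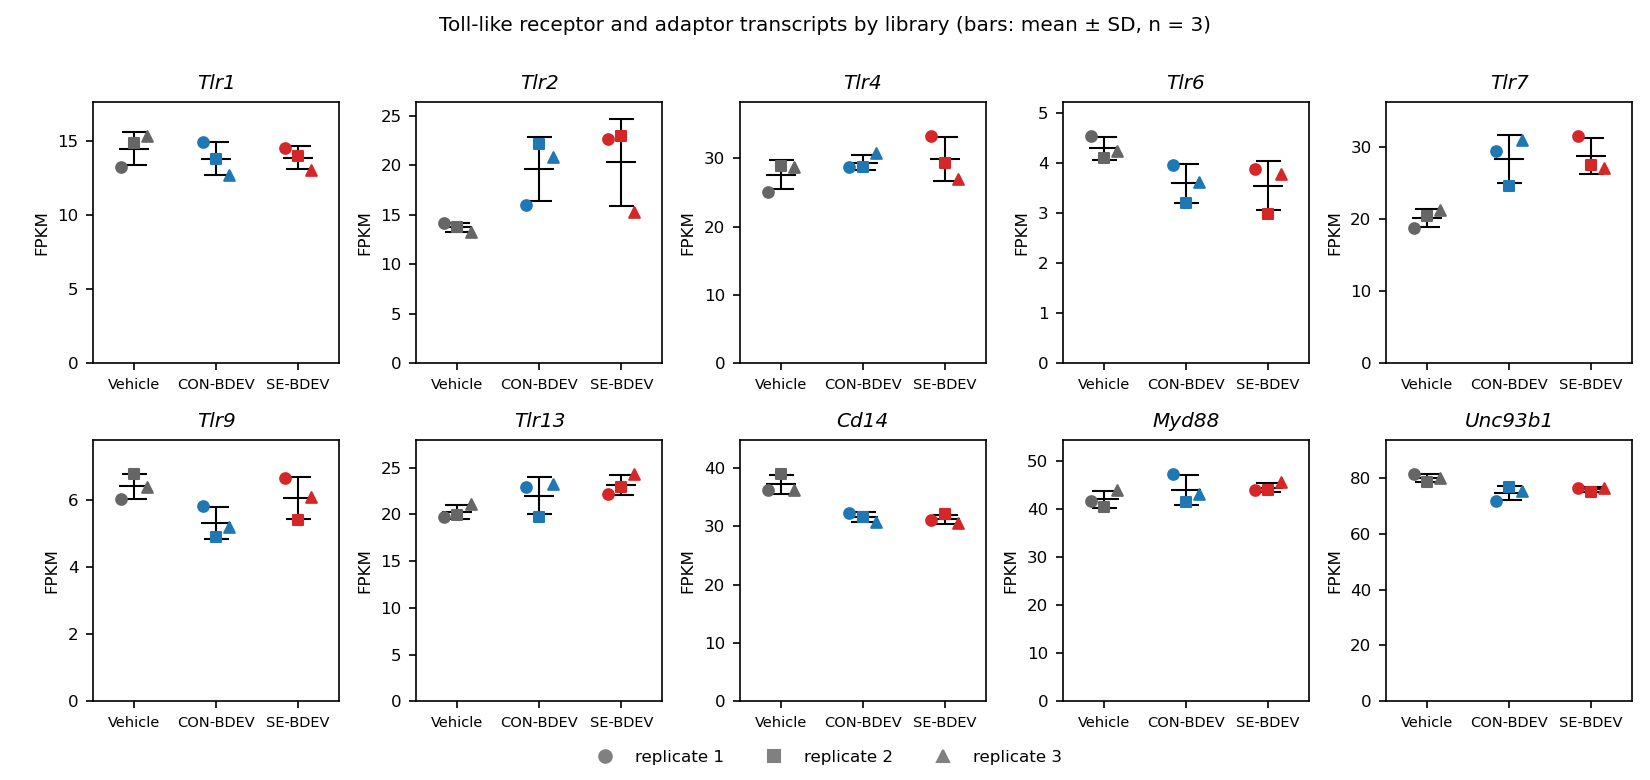
Expression of each transcript in FPKM (y axis, from 0) in the 3 Vehicle, 3 CON-BDEV and 3 SE-BDEV libraries; symbols are replicates, and bars give the mean and SD. Tlr2 and Tlr7 sit higher, and Cd14, Tlr6 and Unc93b1 lower, in all 6 vesicle libraries than in the 3 Vehicle libraries.

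Tested by limma on log2(FPKM + 1) with adjustment over 10535 genes, 2 of the 10 transcripts rose with CON-BDEV (Tlr2 and Tlr7) and 1 fell (Cd14), while over all genes 5.67% changed, 3.81% higher and 1.86% lower. With SE-BDEV 3 rose (Tlr2, Tlr7 and Tlr13) and 1 fell (Cd14), against 11.9% of all genes, 6.76% higher and 5.14% lower. With 1 library left out, 0 to 4 were called with CON-BDEV and 2 to 3 with SE-BDEV. Over all genes CON-BDEV calls were 401 higher and 196 lower, and 301 and 249 after quantile normalization. The 3 libraries of the groups did not overlap for 6 of 10 transcripts in each comparison, where this held for 29.3% of all genes with CON-BDEV and 32.8% with SE-BDEV. These 6 were Tlr2, Tlr7, Tlr6, Cd14 and Unc93b1 in both comparisons, Tlr9 with CON-BDEV and Tlr13 with SE-BDEV. The median log2 fold change of the 10 was -0.0013 with CON-BDEV (0.0054 over all genes) and 0.010 with SE-BDEV (-0.00080 over all genes). The median of the absolute values was 0.16 and 0.15, against 0.077 and 0.075 over all genes. The 10 were chosen with earlier results of these data known, so these contrasts with all genes only describe them. In bulk RNA, a different number of cells expressing a gene and a different amount per cell cannot be told apart. In the authors' deposited table, Cuffdiff's q was under 0.05 for Tlr2 and Tlr7 in both comparisons and for none of the other 8, where 4.32% of all genes tested by Cuffdiff passed with CON-BDEV and 5.36% with SE-BDEV.

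**Figure D2:**
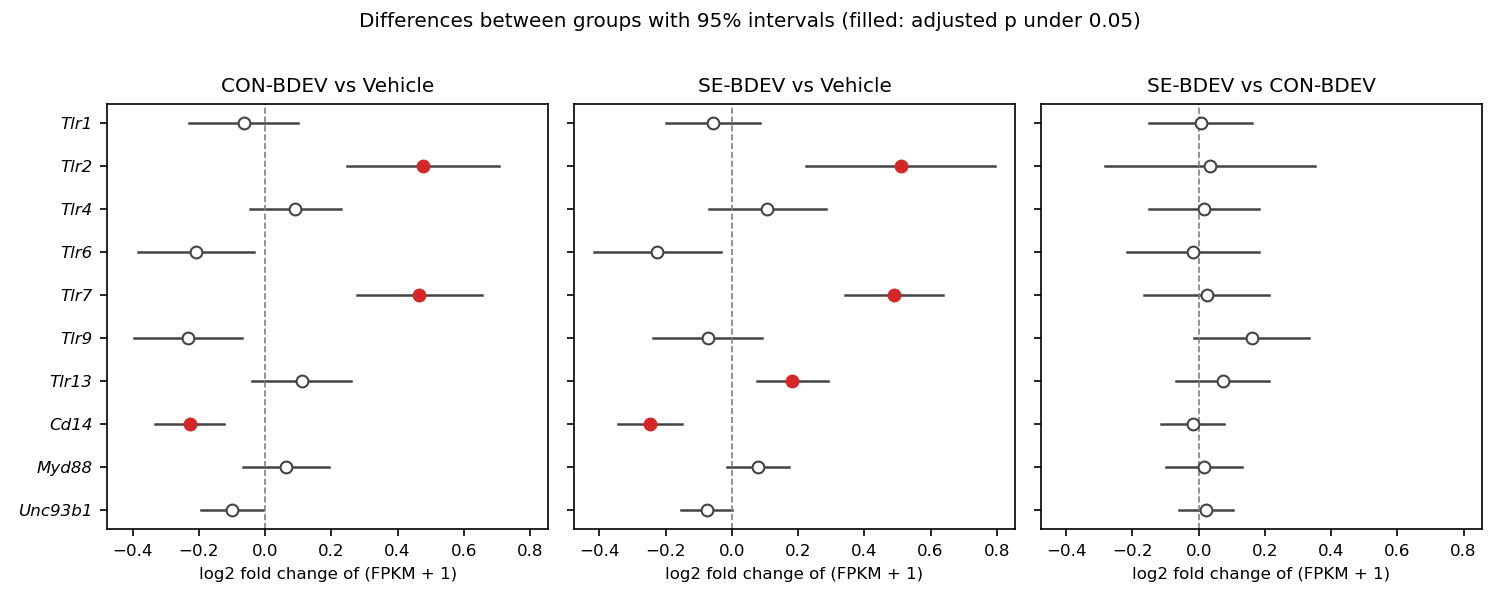
The log2 fold change of (FPKM + 1) for each transcript (x axis) with its 95% interval from limma in the 3 comparisons; filled points have an adjusted p under 0.05. Tlr2 and Tlr7 lie near 0.5 and Cd14 near -0.2 with both preparations, and no point is filled for SE-BDEV against CON-BDEV.

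Among the surface receptors, Tlr2, the shared subunit of the lipopeptide receptors, rose with both preparations. It measured 14.2, 13.8 and 13.3 FPKM in the Vehicle libraries, 16.02, 22.2 and 20.8 FPKM in CON-BDEV and 22.6, 23.0 and 15.3 FPKM in SE-BDEV. All 6 vesicle libraries lay above all Vehicle libraries, but CON-BDEV replicate 1 and SE-BDEV replicate 3 were close to Vehicle. The mean rose from 13.7 ± 0.461 to 19.7 ± 3.23 FPKM with CON-BDEV (SD, n = 3 per group), which is 1.43-fold, with a log2 fold change of 0.48 (SE 0.10, limma adjusted p = 0.0323). With SE-BDEV it rose to 20.3 ± 4.37 FPKM, which is 1.48-fold, with a log2 fold change of 0.51 (SE 0.13, limma adjusted p = 0.0322). The authors' deposited table gives 0.52 (q = 0.00245) and 0.56 (q = 0.00196) for the same comparisons. An estimated 1234 to 2088 fragments stood behind each value, a counting error of 2.19 to 2.85%, against a spread of 16.4% and 21.5% of the mean in the vesicle groups. The call depended on which libraries were used. It held without CON-BDEV replicate 1 (log2 0.61, adjusted p = 0.000959) and without replicate 2, but not without CON-BDEV replicate 3 or any 1 Vehicle library, with an adjusted p of at most 0.119. With SE-BDEV it held only without SE-BDEV replicate 3 (log2 0.69, adjusted p = 4.61e-05), and the adjusted p was 0.0851 to 0.0995 without each of the other 5. With CON-BDEV the call was also lost with no filter on low values (adjusted p = 0.110), without the mean-variance trend (0.0523) and in 1 fit of all 9 libraries (0.0687), and with SE-BDEV under the same settings (0.119, 0.0562 and 0.0549). Tlr2 lies in mm9 on chromosome 3 from 83640194 to 83645530.

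Neither partner of Tlr2 rose. Tlr1, which forms the receptor for triacylated lipopeptides with Tlr2, measured 13.2, 14.9 and 15.3 FPKM in Vehicle, 14.9, 13.8 and 12.7 FPKM in CON-BDEV and 14.6, 13.99 and 13.04 FPKM in SE-BDEV. These ranges overlapped, and the log2 fold changes were -0.065 and -0.058 (limma adjusted p of 0.631 and 0.592), with 95% intervals from -0.23 to 0.10 and from -0.20 to 0.084. Tlr6, the partner for diacylated lipopeptides, measured 4.55, 4.10 and 4.24 FPKM in Vehicle, 3.96, 3.20 and 3.62 FPKM in CON-BDEV and 3.88, 2.98 and 3.78 FPKM in SE-BDEV. All 6 vesicle libraries were below all Vehicle libraries, but the log2 fold changes of -0.21 and -0.23 missed the threshold (limma adjusted p of 0.151 and 0.123). Tlr6 was the least expressed of the 10, with an estimated 322 to 549 fragments per library and a counting error of 4.27 to 5.57%. Tlr1 and Tlr6 are neighbours on mm9 chromosome 5, from 65315919 to 65324797 and from 65344334 to 65351273. They share sequence: 15.3% of 50-base windows of the longest GENCODE Tlr1 coding transcript and 12.6% of those of Tlr6 occur exactly in another gene, mostly in each other. How the authors divided reads from such stretches is not given in the sources used here, so the split between these genes is uncertain. The other 8 transcripts share 0 such windows with another gene.

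Tlr4, the lipopolysaccharide receptor, overlapped between groups. It measured 25.1, 28.9 and 28.7 FPKM in Vehicle, 28.7, 28.8 and 30.7 FPKM in CON-BDEV and 33.3, 29.3 and 26.9 FPKM in SE-BDEV. The log2 fold changes were 0.091 and 0.11 (limma adjusted p of 0.400 and 0.409), with 95% intervals from -0.047 to 0.23 and from -0.068 to 0.28. Cd14, which binds lipopolysaccharide and passes it to the Tlr4 complex and also serves Tlr2, fell with both preparations. Its values were 36.3, 39.0 and 36.3 FPKM in Vehicle, 32.4, 31.7 and 30.7 FPKM in CON-BDEV and 31.03, 32.03 and 30.5 FPKM in SE-BDEV. The vesicle libraries lay within a narrow band below all Vehicle libraries, and the means were 37.2 ± 1.57, 31.6 ± 0.815 and 31.2 ± 0.768 FPKM (SD, n = 3 per group). The log2 fold change was -0.23 with CON-BDEV (SE 0.047, limma adjusted p = 0.0275) and -0.25 with SE-BDEV (SE 0.043, limma adjusted p = 0.00805). The authors' deposited table gives -0.24 (q = 0.161) and -0.25 (q = 0.0751), neither under 0.05. With SE-BDEV the call held without each of the 6 libraries in turn, with an adjusted p of at most 0.0383. With CON-BDEV it held only without CON-BDEV replicate 1 or replicate 2, and the highest adjusted p was 0.124, without Vehicle replicate 2. It was also lost there with no filter on low values (adjusted p = 0.0624) and with the replicate number as a block (0.0577). In mm9 Tlr4 lies on chromosome 4 from 66488845 to 66503830 and Cd14 on chromosome 18 from 36884718 to 36886469.

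Of the endosomal receptors, Tlr7, the sensor of single-stranded RNA, rose with both preparations. It measured 18.8, 20.4 and 21.3 FPKM in Vehicle, 29.4, 24.6 and 30.9 FPKM in CON-BDEV and 31.6, 27.5 and 27.1 FPKM in SE-BDEV. The lowest vesicle library, CON-BDEV replicate 2, was still above the highest Vehicle library, and it was the highest CON-BDEV library for Tlr2. The mean rose from 20.2 ± 1.28 to 28.3 ± 3.32 FPKM with CON-BDEV and to 28.7 ± 2.46 FPKM with SE-BDEV (SD, n = 3 per group), which is 1.40-fold and 1.43-fold. The log2 fold change was 0.47 with CON-BDEV (SE 0.083, limma adjusted p = 0.0178) and 0.49 with SE-BDEV (SE 0.066, limma adjusted p = 0.00217). In the authors' deposited table the values are 0.49 (q = 0.00245) and 0.51 (q = 0.00196). With SE-BDEV the call held without each of the 6 libraries, with an adjusted p of 0.00213 to 0.0117. With CON-BDEV it held only without CON-BDEV replicate 1 or replicate 2, and was 0.0569 to 0.0796 without each of the other 4. Without the expression filter it was 0.0789. Tlr7 lies on mm9 chromosome X from 163742858 to 163768503, and an estimated 2402 to 3916 fragments stood behind each value.

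Tlr13, the mouse receptor for bacterial ribosomal RNA, rose with SE-BDEV by a small amount. It measured 19.7, 19.95 and 21.1 FPKM in Vehicle, 22.9, 19.7 and 23.3 FPKM in CON-BDEV and 22.2, 22.9 and 24.3 FPKM in SE-BDEV. The SE-BDEV libraries did not overlap with Vehicle, while CON-BDEV replicate 2 lay within the Vehicle range. The log2 fold change was 0.18 with SE-BDEV (SE 0.048, limma adjusted p = 0.0398) and 0.11 with CON-BDEV (SE 0.067, limma adjusted p = 0.351). The SE-BDEV call held only without SE-BDEV replicate 1, and the adjusted p reached 0.147 without Vehicle replicate 1. It was also lost with no filter on low values (adjusted p = 0.0798), after quantile normalization (0.0537), without the trend (0.0586) and in the fit of all 9 libraries (0.109), and the authors' deposited table gives q = 0.229. Tlr13 lies on mm9 chromosome X from 103338614 to 103355832.

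Tlr9, the CpG DNA receptor, did not pass the threshold in either comparison. It measured 6.04, 6.78 and 6.39 FPKM in Vehicle, 5.83, 4.90 and 5.19 FPKM in CON-BDEV and 6.65, 5.41 and 6.10 FPKM in SE-BDEV. The CON-BDEV libraries were all below Vehicle, and the SE-BDEV libraries overlapped with it. The log2 fold change was -0.23 with CON-BDEV (SE 0.072, limma adjusted p = 0.0942) and -0.073 with SE-BDEV (SE 0.073, limma adjusted p = 0.557). Without CON-BDEV replicate 1 the first passed (adjusted p = 0.0306). Markers of dendritic and B cells, other immune cells that express Tlr7 and Tlr9, summed to at most 0.122 FPKM over 5 genes in any library. Tlr9 lies on mm9 chromosome 9 from 106124929 to 106129207.

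Unc93b1, the chaperone that carries Tlr7, Tlr9 and Tlr13 to endosomes, was the most abundant of the 10. It measured 81.6, 78.8 and 79.9 FPKM in Vehicle, 72.0, 76.9 and 75.3 FPKM in CON-BDEV and 76.6, 74.9 and 76.3 FPKM in SE-BDEV. The 6 vesicle libraries were below the 3 Vehicle libraries, the group means differed by -6.71% and -5.23%, and the log2 fold changes of -0.099 and -0.076 missed the threshold (limma adjusted p of 0.185 and 0.183). Myd88, the shared adaptor, measured 41.8, 40.6 and 44.0 FPKM in Vehicle, 47.4, 41.4 and 43.3 FPKM in CON-BDEV and 43.9, 44.0 and 45.6 FPKM in SE-BDEV. Its groups overlapped, and the log2 fold changes were 0.062 and 0.079 (limma adjusted p of 0.547 and 0.256), with 95% intervals from -0.067 to 0.19 and from -0.015 to 0.17. In mm9 Unc93b1 lies on chromosome 19 from 3935186 to 3949340 and Myd88 on chromosome 9 from 119245106 to 119249158. None of the 10 deposited loci overlaps another entry.

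**Figure D3:**
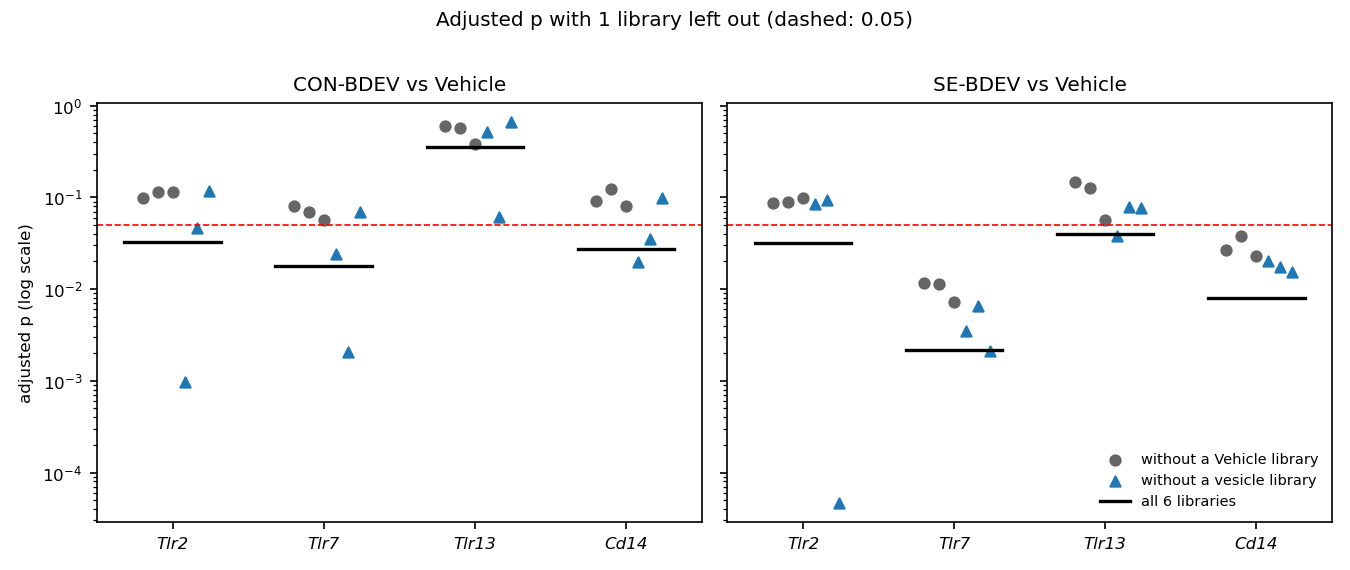
The limma adjusted p (log y axis) of the 4 transcripts past the threshold in either comparison with Vehicle, with all 6 libraries (line) and with 1 library left out (points); the dashed line is 0.05. With SE-BDEV all 6 points of Tlr7 and Cd14 lie under the line, and with CON-BDEV each called gene has 4 points above it.

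The number at the start of the library name code, whose meaning the labels do not give, is 1 for 4 libraries and 2 for 5, and each number holds libraries of all 3 groups. Within number 1 (2 Vehicle libraries and 1 of each vesicle group) the log2 difference from Vehicle was 0.18 with CON-BDEV and 0.66 with SE-BDEV for Tlr2, 0.56 and 0.66 for Tlr7, and -0.21 and -0.27 for Cd14. Within number 2 (1 Vehicle library and 2 of each vesicle group) these were 0.66 and 0.47 for Tlr2, 0.36 and 0.35 for Tlr7, and -0.21 and -0.21 for Cd14. Tlr13 with SE-BDEV was 0.15 higher within each number. For these genes the direction was the same within both numbers. It had to be, because their groups did not overlap in these comparisons, so it adds no separate support. With this number as a block, Tlr2 and Cd14 with CON-BDEV had adjusted p of 0.0683 and 0.0677, and Tlr13 with SE-BDEV 0.0639.

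The summed level of the 18 microglia and macrophage markers was 2686 to 2780 FPKM in Vehicle, 2719 to 2851 FPKM in CON-BDEV and 2785 to 2944 FPKM in SE-BDEV, and its part in the differences of the receptors was not tested. The 12 neuroblastoma and neuronal markers summed to 75.8 to 79.8, 101 to 110 and 97.4 to 106 FPKM. Nearly all of that sum was Uchl1, which ranged from 72.1 to 106 FPKM over the libraries, and Th, Dbh, Mycn and Stmn2 were at 0 throughout. The part of these markers was not tested either.

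SE-BDEV was compared with CON-BDEV directly in a fit of all 9 libraries. No transcript of the 10 passed the threshold, and limma called 0 of 10532 genes (0%), with 509 genes (4.83%) at an unadjusted p under 0.05. The largest difference among the 10 was that of Tlr9, at 0.16 (SE 0.079, unadjusted p = 0.0662, adjusted p = 0.999, 95% interval from -0.013 to 0.33). For Tlr2 it was 0.034, with an interval from -0.28 to 0.35, and for Tlr7 0.024, from -0.16 to 0.21. For Cd14 it was -0.018, from -0.11 to 0.078. The interval of Tlr2 is the widest of the 10. Tlr13, called with SE-BDEV and not with CON-BDEV, differed between them by 0.073, from -0.068 to 0.21, so its responses were not shown to differ.

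Other genes of the pathway were taken from lists by role. Of 5 other Toll-like receptors 0 had a mean of 1 FPKM, so none was tested. Tlr3, the receptor for double-stranded RNA, had the highest mean over all 9 libraries (0.683 FPKM, against 0.616 FPKM for Tlr5), with 0.710, 0.661 and 0.677 FPKM in Vehicle, CON-BDEV and SE-BDEV. Tlr11 was listed at 0 in all 9 libraries. Of 16 co-receptors, chaperones and endosomal proteins kept, 3 rose and 0 fell with CON-BDEV and 6 rose and 1 fell with SE-BDEV, with medians of 0.086 and 0.066. Over all genes 5.67% were called with CON-BDEV and 11.9% with SE-BDEV, with medians of 0.0054 and -0.00080. Cd36, a scavenger receptor that assists Tlr2 with Tlr6, rose by 1.25 and 1.37 (limma adjusted p of 0.00426 and 2.12e-06). Ctsk, a lysosomal protease, rose by 0.33 and 0.29. Hsp90b1, the endoplasmic reticulum chaperone gp96 needed to fold most Toll-like receptors, rose with SE-BDEV (0.23, limma adjusted p = 0.02997) and had 0.26 with CON-BDEV (limma adjusted p = 0.0726). Cnpy3, its co-chaperone for these receptors, rose from 42.0 to 49.3 FPKM with CON-BDEV and to 48.6 FPKM with SE-BDEV, by 0.22 and 0.20 (limma adjusted p of 0.0295 and 0.00827). The member that fell was Slc15a3, an endosomal peptide transporter (-0.22 with SE-BDEV, limma adjusted p = 0.00451), whose deposited locus overlaps Tmem132a. Cnpy3 and Slc15a3 were chosen after their values were seen. The authors' Cuffdiff q was 0.169 and 0.177 for Cnpy3, and with SE-BDEV 0.104 for Hsp90b1 and 0.217 for Slc15a3. It was under 0.05 for Cd36 and Ctsk in both comparisons.

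In the MyD88 branch 1 of 17 genes kept rose in each comparison and 0 fell, with medians of 0.018 and 0.020, where 5.67% and 11.9% of all genes were called. It was Ikbkg, the regulatory subunit of the IkB kinase, which rose from 8.33 to 11.9 FPKM in both comparisons, by 0.47 and 0.47 (limma adjusted p of 0.0190 and 0.00273). Its deposited locus overlaps that of G6pdx, an enzyme of the pentose phosphate pathway, which rose by 0.65 and 0.68. How reads of that overlap were divided is not given in the sources used here, so the value of Ikbkg is uncertain, and the authors' deposited table gives q = 0.380 and 0.302 for it. The kinases Irak1, Irak2 and Irak4 and the ligase Traf6, next after Myd88, were not called in either comparison, with log2 fold changes from -0.038 to 0.16. In the TRIF branch 0 of 8 genes were called with CON-BDEV, while with SE-BDEV the kinase Tbk1 rose (0.16, limma adjusted p = 0.0421) and the related kinase Ikbke fell (-0.27, limma adjusted p = 0.0318). With SE-BDEV the authors' Cuffdiff q was 0.378 for Tbk1 and 0.0394 for Ikbke. The TRIF list had medians of -0.047 and -0.017. Of 11 negative regulators 0 were called with CON-BDEV and 1 with SE-BDEV, where Socs3, a cytokine-signalling inhibitor, rose by 0.18 (limma adjusted p = 0.0475). For Socs3 with SE-BDEV the authors' Cuffdiff q was 0.280. The medians of these regulators were -0.033 and 0.029. Over all genes 5.67% were called with CON-BDEV and 11.9% with SE-BDEV, the background for both of these lists.

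Of 12 kept target genes that these receptors can induce, 3 rose and 1 fell with CON-BDEV and 4 rose and 1 fell with SE-BDEV, with medians of 0.12 and 0.076, where 5.67% and 11.9% of all genes were called. Ccl2, a monocyte attractant, rose by 0.86 and 0.85, and Ptgs2, the inducible cyclooxygenase, rose by 0.75 and 0.88. Saa3, an acute-phase protein, rose by 0.34 and 0.28 (limma adjusted p of 0.0479 and 0.0198), but the authors' Cuffdiff q was 0.0610 and 0.126. Il1b, the cytokine interleukin 1 beta, rose with SE-BDEV (0.46, limma adjusted p = 0.00313) and had 0.27 with CON-BDEV (limma adjusted p = 0.122). The deposited locus of Il1b overlaps that of Il1bos. Ccl4, a chemokine, fell by 0.81 and by 0.88. Cuffdiff's q was under 0.05 for Ccl2, Ptgs2 and Ccl4 in both comparisons and for Il1b with SE-BDEV. Tnf, at 8.63 FPKM in Vehicle, had 0.14 and 0.035 (limma adjusted p of 0.241 and 0.692), and Il6, Cxcl1 and Ifnb1 were listed at 0 in all 9 libraries. The Irak genes, Traf6, Saa3, Il1b, Tnf and the genes at 0 were chosen after their values were seen. In SE-BDEV against CON-BDEV 0 genes of any list were called.

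**Figure D4:**
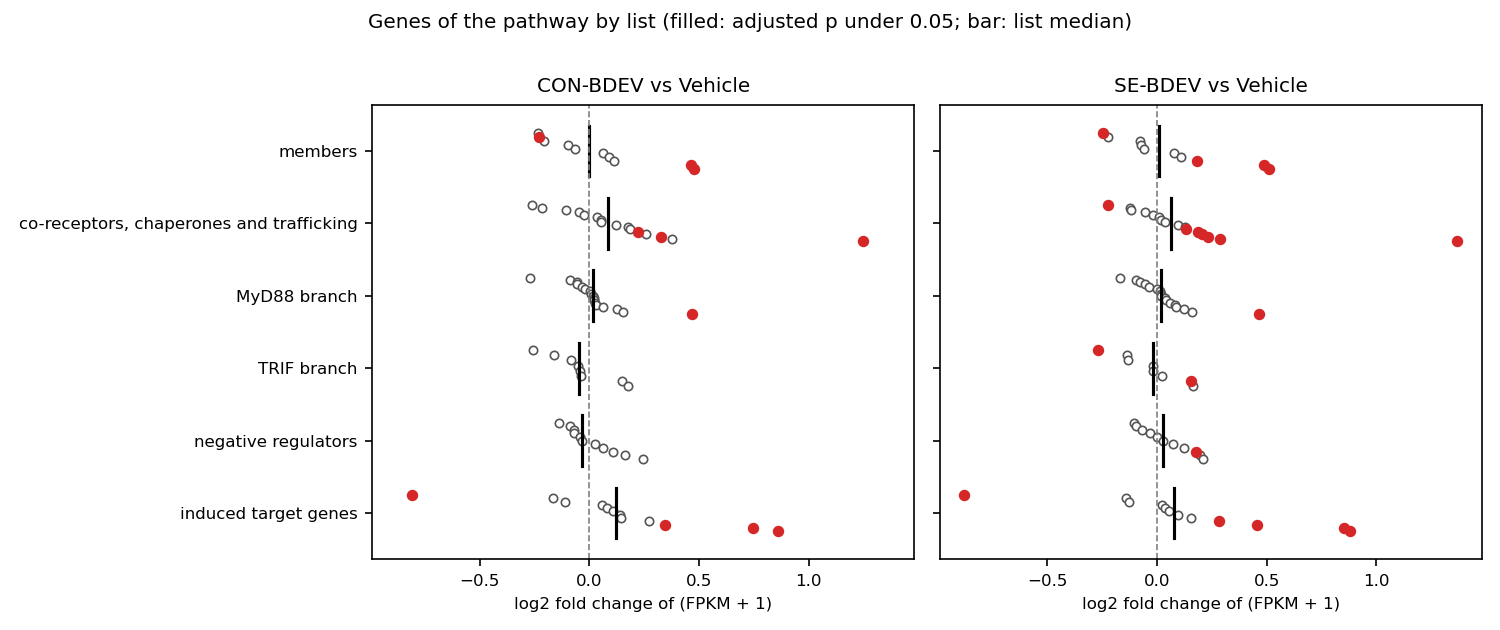
The log2 fold change of (FPKM + 1) against Vehicle (x axis) of each kept gene, by list, with CON-BDEV (left) and SE-BDEV (right); filled points have an adjusted p under 0.05 and bars are list medians. The filled point furthest to the right is Cd36, and the MyD88 and TRIF lists have medians between -0.047 and 0.020.

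The pattern of each called transcript over the 9 libraries was set against that of all other kept genes by Pearson's r of log2(FPKM + 1), given as a description because the libraries share their groups. The most similar genes to Tlr2 were Ifrd1 (r = 0.988), a transcriptional co-regulator, Herpud1 (0.985), a component of endoplasmic reticulum-associated degradation, and Rbm18 (0.977). Ifrd1 measured 96.1 FPKM in CON-BDEV replicate 1 and 94.0 FPKM in SE-BDEV replicate 3, against 77.8 to 88.3 FPKM in Vehicle and 143 to 154 FPKM in the other 4 vesicle libraries. The 2 libraries in which Tlr2 was near Vehicle were also the lowest vesicle libraries for Ifrd1. Similar genes, here and below, were chosen by r over these same libraries, so such shared levels follow from the choice. For Tlr7 the most similar were Cd48 (0.991), a surface protein of leukocytes, Jade1 (0.991) and Tmem43 (0.987), and all 3 were lowest among the vesicle libraries in CON-BDEV replicate 2. For Tlr13 they were the proton pump subunit Atp6v0a2 (0.975), the lysosomal amino acid transporter Slc36a1 (0.973) and Stt3a (0.971), a subunit of oligosaccharyltransferase. For Cd14 they were the kinesin Kif21b (0.970), Mtss1 (0.965) and the clock gene Per3 (0.958), all lower in the 6 vesicle libraries. Among the 10 transcripts themselves r was highest for Tlr13 with Myd88 (0.799) and lowest for Tlr7 with Cd14 (-0.871), and it was 0.697 for Tlr2 with Tlr7.

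**Figure D5:**
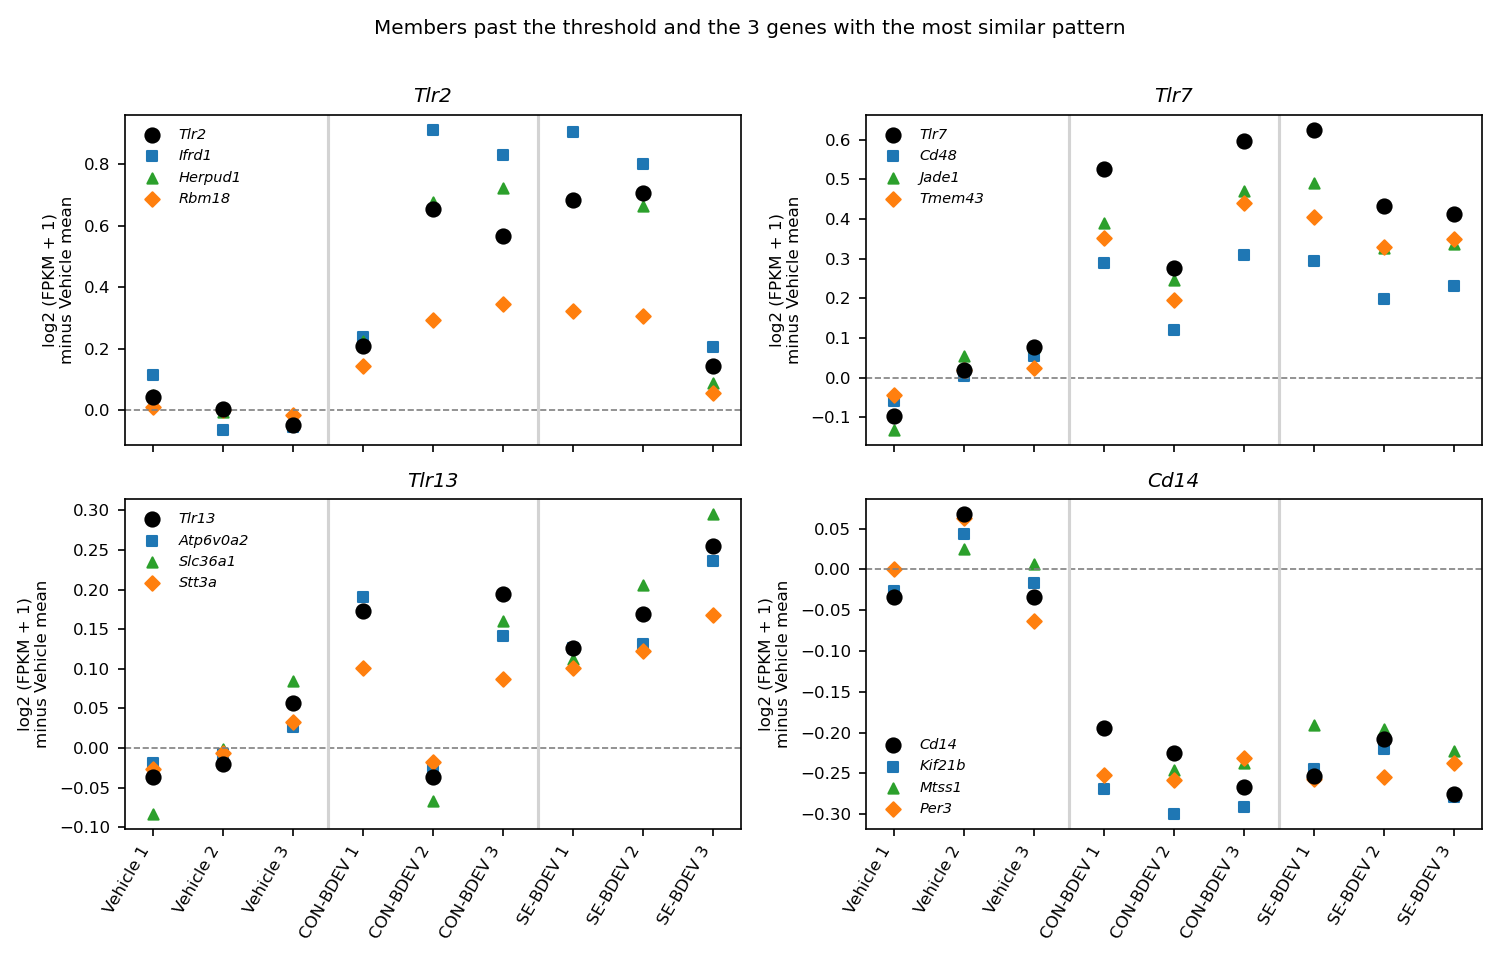
The log2(FPKM + 1) minus the Vehicle mean (y axis) in each of the 9 libraries for Tlr2, Tlr7, Tlr13 and Cd14 (black) and for the 3 genes with the highest r to each (colours). Tlr2 is near Vehicle in CON-BDEV replicate 1 and SE-BDEV replicate 3, Tlr7 and Tlr13 are lowest among the vesicle libraries in CON-BDEV replicate 2, and Cd14 is low in all 6 vesicle libraries.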

How the data were processed

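RNA-seq libraries of polyA RNA were made with a directional kit per the labels' protocols, and the submitters' processing notes name TopHat2, Cuffdiff and build mm9 (versions and annotation not given in the sources used here). The authors deposited 1 table of FPKM per vesicle group with Vehicle (24318 genes each). The deposited Cuffdiff tables give the authors' log2 fold changes, test scores, p-values and q-values per the file headers. The Vehicle libraries of both tables differed by constant factors (1.00042, 1.00012 and 1.00078), so SE-BDEV values were divided by their geometric mean to join them for SE-BDEV against CON-BDEV. Fth1 and Ftl1 were left out where Cuffdiff's status was too many fragments. Listed starts were taken as counted from 0 (the listed span equalled the exon length of 632 single-exon genes on that reading and of 21 on the other), so 1 was added.

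2-sided limma tests (limma 3.58.1 in R 4.3.3, empirical Bayes with the variance following the mean) were run on log2(FPKM + 1). Genes needed a mean FPKM of 1 or more, with Benjamini-Hochberg adjustment over all genes kept and a threshold of 0.05. Fold changes are on that scale and understate changes of low genes. The model was tested on simulated data. An exact permutation test of 3 libraries against 3 cannot go below p = 0.1, so none was run. Depth was estimated from the steps between values under 0.05 FPKM and the exon lengths of 30 genes (GENCODE vM21), and the intervals of limma cover the spread between libraries. Alternatives were another pseudocount (0.1 FPKM), no filter, quantile normalization, 2 blocks, no trend, 1 fit of all 9 libraries and each library left out.

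The members and the lists were chosen with earlier results of these data known. Named beside the members are up to 3 called genes per list by size of change (the best expressed gene where none was called), and for each called member the 3 genes with the highest r, passing over clone-named and predicted genes.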

Additional observations from a re-analysis of the deposited data

How the results depend on the processing

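Over the comparisons with Vehicle, the log2 fold changes of the 10 transcripts kept their direction under all 260 combinations of a transcript and an alternative, and in 38 of them a call was lost and in 1 gained. The direction could not turn with no filter, with the replicate block or without a trend, which leave the fold change itself the same. The fit of all 9 libraries leaves it nearly the same. Where the groups did not overlap, leaving 1 library out could not turn it either. Tlr7 and Cd14 with SE-BDEV were called under every alternative run. With no filter on low values, which tests more genes, 112 genes and 0 of the 10 transcripts were called with CON-BDEV and 726 genes and 2 transcripts with SE-BDEV, against 597 and 3, and 1253 and 4. Under the replicate block 364 genes were called with CON-BDEV. Libraries with the same replicate number had a mean correlation of -0.040 (from -0.26 to 0.19 over 9 pairs). Of the 9 libraries, 3 were closest to their own replicate number. Libraries sharing the number in the library name had a mean correlation of -0.0021 (from -0.27 to 0.34 over 13 pairs). Whether libraries sharing either number were handled together was not tested. Blocking on the number in the library name left 275 genes and 1 transcript for CON-BDEV. A single fit over all 9 libraries called 830 genes and 2 transcripts for SE-BDEV. Without a trend 2 transcripts were called with SE-BDEV, and 1 gene for SE-BDEV against CON-BDEV.

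With 1 library left out, 84 to 1067 genes and 0 to 4 transcripts were called with CON-BDEV, 501 to 1311 genes and 2 to 3 transcripts with SE-BDEV, and 0 to 1 genes and 0 transcripts between the preparations. For CON-BDEV, dropping Vehicle replicate 1, 2 or 3 gave 110, 84 or 121 genes, and dropping CON-BDEV replicate 1, 2 or 3 gave 1067, 905 or 133. For SE-BDEV, dropping Vehicle replicate 1, 2 or 3 gave 501, 601 or 678. The cause was not tested. Between the preparations the sign turned for 8 transcripts, with log2 ranges of -0.10 to 0.22 (Tlr2), -0.063 to 0.085 (Tlr4), -0.081 to 0.076 (Tlr6), -0.0035 to 0.044 (Unc93b1), -0.071 to 0.089 (Tlr7), -0.00050 to 0.11 (Tlr13), -0.026 to 0.069 (Myd88) and -0.047 to 0.061 (Tlr1). Depth limits Tlr6 and Tlr9 most among the 10.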

Other observations

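Tlr8, a relative of Tlr7 that lies 41137 bases from it on mm9 chromosome X (from 163680664 to 163701720), was below the limit for testing and was chosen after its values were seen. It measured 0.109, 0.107 and 0.0947 FPKM in Vehicle, 0.296, 0.158 and 0.310 FPKM in CON-BDEV and 0.361, 0.177 and 0.432 FPKM in SE-BDEV. All 6 vesicle libraries were above the 3 Vehicle libraries, and replicate 2 was the lowest of each vesicle group. An estimated 10.03 to 48.0 fragments stood behind each value, a counting error of 14.4 to 31.6%. The authors' deposited table gives a log2 fold change of 1.64 with SE-BDEV (q = 0.00509), and with CON-BDEV 1.30 with no test.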
